A study of Mus musculus with 12 samples.

Results

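The subject here is the interaction of 4-hydroxytamoxifen with rosiglitazone in mouse adipocytes: for each gene, the difference that 4-hydroxytamoxifen made in the presence of rosiglitazone minus the difference it made without. It was computed from all 12 arrays of the series, 3 in each of 4 groups, over 22180 genes, each represented by the brightest probe set that carries a single gene symbol. All cells were adipose precursors from inguinal fat with the genotype R26Cre/Prdm16floxEx9, meaning that Cre is carried at Rosa26 and that loxP sites flank exon 9 of Prdm16. While growing, they received 1 uM 4-hydroxytamoxifen or its ethanol vehicle for 3 days, and all were then differentiated in a medium with isobutylmethylxanthine, indomethacin, dexamethasone, insulin and T3. The groups are called EtOH (vehicle, no rosiglitazone), 4OHT (4-hydroxytamoxifen, no rosiglitazone), EtOH_Rosi (vehicle, then 1 uM rosiglitazone) and 4OHT_Rosi (4-hydroxytamoxifen, then 1 uM rosiglitazone). No group received 4-hydroxytamoxifen without carrying the floxed allele and the Cre, so an effect of the drug and an effect of the excision cannot be told apart. The labels do not say whether the 3 arrays of a group come from separate cultures or animals, so p-values reflect array-to-array spread alone, and that spread may be technical.

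PRDM16 is a zinc finger coregulator that drives the brown and beige fat program in precursors and subcutaneous adipocytes, largely by acting with other transcription factors such as PPARgamma and the C/EBP proteins. Rosiglitazone is a thiazolidinedione agonist of PPARgamma, the nuclear receptor that directs adipocyte differentiation, and prolonged treatment induces thermogenic genes in white adipocytes. A negative interaction means that 4-hydroxytamoxifen lowered a gene more, or raised it less, when rosiglitazone was present. Equally, it means that rosiglitazone raised the gene less, or lowered it more, in cells treated with 4-hydroxytamoxifen.

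Values are log2 probe set signals as deposited, and a difference of 1 is a 2-fold change. The median level of the genes tested was 6.60. Of the 7 adipocyte markers measured, all 7 lay at or above that level in every group, between 10.32 and 13.62, and 4 of 5 precursor markers did so too. Arrays of 1 group correlated at 0.996 to 0.998 across genes. The array 4OHT_Rosi 3 stood apart on the third principal component (16.03, against -8.95 to 7.98 for the others), and on the first, where the other rosiglitazone arrays lay between 21.86 and 29.79, it lay at 14.93. Called genes named in the text that were not called without it, and the gene lists whose median it moved most, are given without it near the end.

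In limma's fit over all genes, the interaction was called (Benjamini-Hochberg adjusted p under 0.05) in 116 genes in the positive direction, 0.523% of those tested, and in 107 in the negative direction, 0.482%. The 223 called genes made up 1.01%, and 3106 genes had an unadjusted p under 0.05. The called sizes began at 0.33, and 12 genes in each direction reached 1. For comparison, the effect of 4-hydroxytamoxifen itself was called in 3.91% of genes without rosiglitazone and in 8.03% with it. Of the 107 negative genes, 84 had a called effect of 4-hydroxytamoxifen with rosiglitazone only, 12 without it only, 5 had called effects of opposite sign, 2 of the same sign and 4 neither. Of the 116 positive genes, the same numbers were 61, 48, 5, 1 and 1. The count depended on single arrays. The 223 calls became 51 without 4OHT 1, 69 without 4OHT 2, 91 without 4OHT 3, 90 without EtOH 1, 68 without EtOH 2 and 89 without EtOH 3. They became 68 without EtOH_Rosi 2, 113 without EtOH_Rosi 3, 93 without 4OHT_Rosi 3 and 197 without 4OHT_Rosi 2. They rose to 287 without 4OHT_Rosi 1 and 331 without EtOH_Rosi 1. All 223 genes kept their sign in all 12 of these fits. They were called on the same arrays, so a change of sign was unlikely from the start. In 49 genes, 22 positive and 27 negative, the call also held in every one of the 12. These 49 were singled out after their values were seen, and most of what follows is about them.

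**Figure D1:**
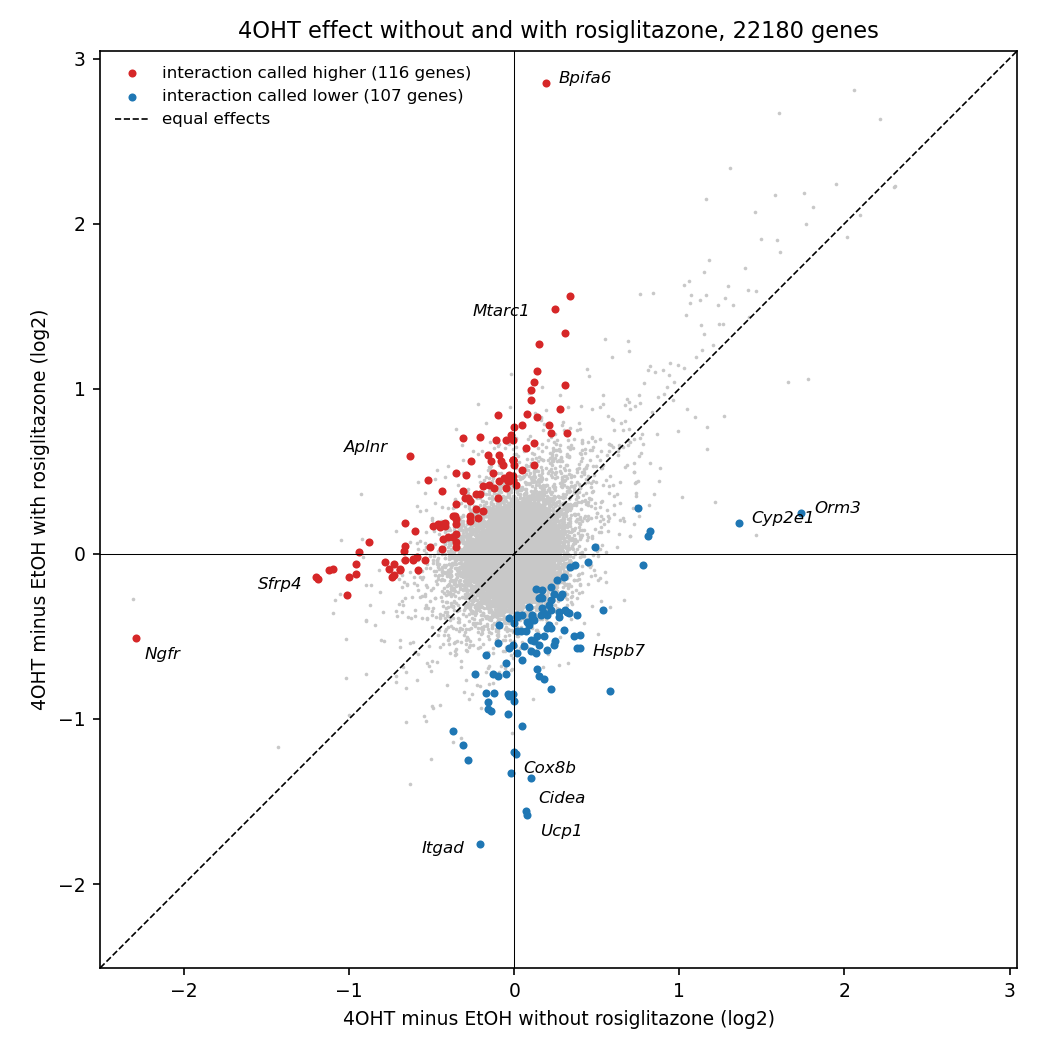
Each point is 1 of 22180 genes; the horizontal axis is the difference 4OHT minus EtOH without rosiglitazone and the vertical axis the same difference with rosiglitazone, both on the log2 scale. Red points are the 116 genes with a called positive interaction and blue points the 107 with a called negative one; the dashed line marks equal effects, and the distance above or below it is the interaction. Ucp1, Cidea, Cox8b and Itgad lie straight below the origin, Bpifa6 and Mtarc1 above it, and Ngfr and Sfrp4 to its left.

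Prdm16, the targeted gene, was read by 2 probe sets. On the brighter (17433631) the values were 6.55, 6.49 and 6.84 in EtOH, 6.33, 6.45 and 6.59 in 4OHT, 7.20, 7.46 and 7.44 in EtOH_Rosi, and 6.63, 6.70 and 6.63 in 4OHT_Rosi. Only EtOH_Rosi stood clear of the other groups. The difference between 4-hydroxytamoxifen and ethanol was -0.17 without rosiglitazone (adjusted p = 0.455) and -0.71 with it (adjusted p = 0.000646). The interaction was -0.54 ± 0.14 (SE), which did not pass the test (limma adjusted p = 0.0954). It was called in 1 of the 12 fits that left out an array, the one without EtOH_Rosi 1. The second probe set (17422384) was dim, with group means of 4.63 to 4.80 and an interaction of 0.02. The position of both probe sets relative to exon 9 is unknown here, and neither value measures the excision.

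Thermogenic genes held the largest negative interactions. Of 37 measured genes of the brown and beige program, 6 were called negative and 0 positive, against 0.482% and 0.523% of all genes. In 5 of the 6, namely Ucp1, Cidea, Cox8b, Ppara and Letmd1, the call held in every fit that left out an array. The median interaction of the list was -0.16 (-0.20 to -0.08 over those fits), with 26 genes below 0 and 11 above, where all genes had a median of 0.00. Its median response to rosiglitazone was 0.47 after ethanol and 0.27 after 4-hydroxytamoxifen. Promoter sequences of 3 of these 5 genes are shown as examples. They are RefSeq promoters on GRCm38.p6, from 250 bases before the start of transcription to 50 bases after it, 5′ to 3′ on the gene's own strand. Ucp1 lies at chr8:83290098-83290397 on the plus strand, Cox8b at chr7:140900397-140900696 on the minus strand and Letmd1 at chr15:100468761-100469060 on the plus strand. Capitals mark the letters AGGTCA, a half-site that nuclear receptors such as the PPARs bind, CCAAT and TTTGAA, each searched on both strands.
Ucp1: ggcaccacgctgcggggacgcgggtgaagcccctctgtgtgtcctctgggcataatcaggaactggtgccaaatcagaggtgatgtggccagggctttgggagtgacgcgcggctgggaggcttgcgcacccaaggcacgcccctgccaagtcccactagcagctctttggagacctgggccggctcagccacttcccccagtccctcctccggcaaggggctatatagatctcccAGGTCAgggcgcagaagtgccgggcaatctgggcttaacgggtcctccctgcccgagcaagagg
Cox8b: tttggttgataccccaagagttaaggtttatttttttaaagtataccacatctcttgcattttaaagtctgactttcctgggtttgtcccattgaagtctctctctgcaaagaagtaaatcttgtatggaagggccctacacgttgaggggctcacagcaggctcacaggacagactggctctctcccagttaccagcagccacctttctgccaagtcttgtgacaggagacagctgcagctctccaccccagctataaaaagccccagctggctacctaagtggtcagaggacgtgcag
Letmd1: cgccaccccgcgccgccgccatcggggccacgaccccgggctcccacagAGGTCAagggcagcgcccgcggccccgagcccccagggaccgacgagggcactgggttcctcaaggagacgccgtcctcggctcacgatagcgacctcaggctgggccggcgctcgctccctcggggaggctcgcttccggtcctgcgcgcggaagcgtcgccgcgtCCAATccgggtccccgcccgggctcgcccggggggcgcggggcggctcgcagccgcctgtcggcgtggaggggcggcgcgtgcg
The half-site letters occur once in the Ucp1 window and once in that of Letmd1, and not in that of Cox8b. Among the 31 thermogenic genes with a promoter in the table, 5 windows held them (16.1%), against 16.0% of the windows of all 27025 genes there. The well studied enhancer of Ucp1 lies further upstream, outside this window.

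Ucp1, which encodes the uncoupling protein that makes brown fat mitochondria release heat, had values of 5.59, 5.63 and 5.73 in EtOH and 5.62, 5.86 and 5.70 in 4OHT. With rosiglitazone these were 8.20, 7.51 and 7.65 in EtOH_Rosi but 6.29, 6.10 and 6.24 in 4OHT_Rosi. Every EtOH_Rosi array lay above every 4OHT_Rosi array, while without rosiglitazone the groups overlapped below the median level. Rosiglitazone raised Ucp1 by 2.14 after ethanol and by 0.48 after 4-hydroxytamoxifen, and the interaction was -1.65 ± 0.19 (adjusted p = 0.00591). Cidea, which encodes a protein of lipid droplets that brown adipocytes make in quantity, showed the same order. Its values were 4.76, 4.71 and 5.07 in EtOH, 4.99, 4.89 and 4.87 in 4OHT, 6.20, 6.85 and 6.92 in EtOH_Rosi, and 5.13, 5.15 and 5.02 in 4OHT_Rosi. Cidea was dim: its mean was 6.66 in EtOH_Rosi, close to the median level of 6.60, and 4.85 to 5.10 in the other groups. A fall without rosiglitazone may not be measurable at that level. The interaction was -1.63 ± 0.21 (adjusted p = 0.00726). The rosiglitazone response of Cidea after 4-hydroxytamoxifen was 0.18 and did not pass (adjusted p = 0.461), against 1.81 after ethanol.

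Cox8b, a cytochrome c oxidase subunit of brown fat and muscle, kept a larger part of its response. Its values were 6.57, 6.30 and 6.35 in EtOH, 6.34, 6.33 and 6.48 in 4OHT, 9.46, 9.57 and 10.04 in EtOH_Rosi, and 8.45, 8.55 and 8.09 in 4OHT_Rosi. The response to rosiglitazone was 3.28 after ethanol and 1.98 after 4-hydroxytamoxifen, an interaction of -1.30 ± 0.20 (adjusted p = 0.0122). Letmd1, a mitochondrial inner membrane protein needed for brown fat thermogenesis, had a small change with little spread. It lay between 11.16 and 11.19 in EtOH_Rosi and between 10.76 and 10.80 in 4OHT_Rosi, against 9.96 to 9.98 in EtOH and 10.05 to 10.11 in 4OHT, and its interaction was -0.52 ± 0.07 (adjusted p = 0.00726). The sixth call, in the mitochondrial deacetylase gene Sirt3 (-0.52, adjusted p = 0.0392), held in 3 of the 12 fits and is less certain. Members of the list that did not pass include the coactivator gene Ppargc1a and the oxidase subunit gene Cox7a1. Ppargc1a was at 8.94, 8.99 and 9.21 in EtOH_Rosi, and 9.04, 9.15 and 8.86 in 4OHT_Rosi, which overlapped, and its interaction was -0.18 ± 0.18 (adjusted p = 0.748). That of Cox7a1 was -0.63 ± 0.17 (adjusted p = 0.109), although its values with rosiglitazone, 11.82 to 12.01 after ethanol and 10.95 to 11.23 after 4-hydroxytamoxifen, did not overlap.

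**Figure D2:**
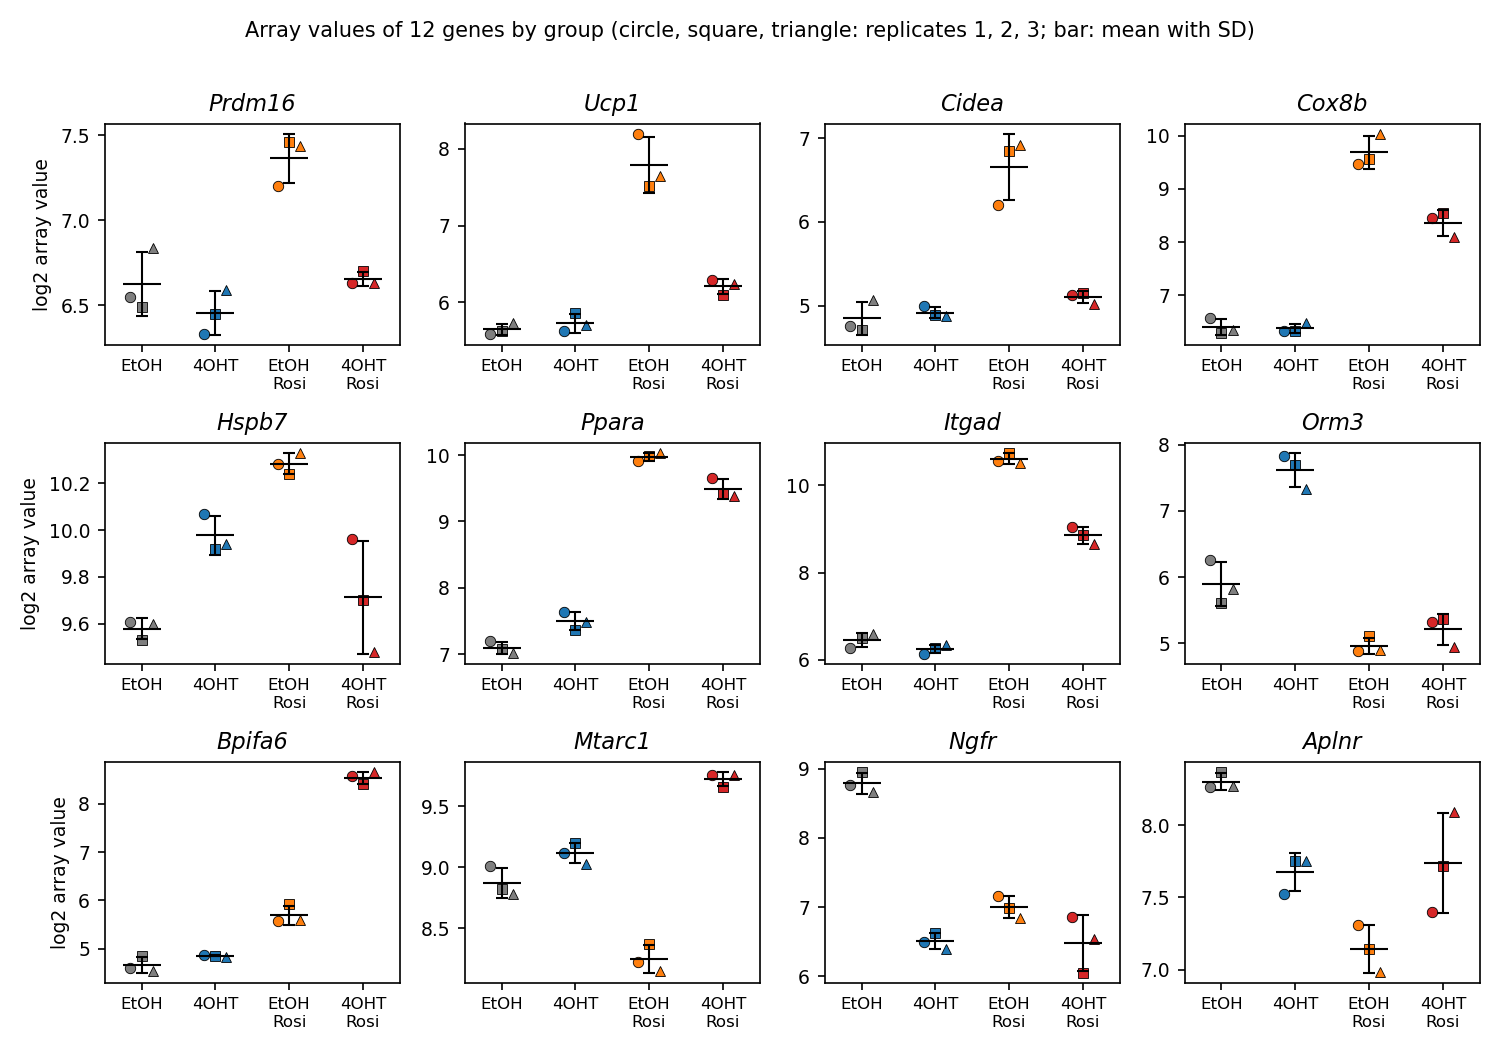
Log2 array values of 12 genes in the 4 groups; circles, squares and triangles are replicates 1, 2 and 3, and the bars give the mean and SD of 3 arrays. The vertical scale differs between genes. In Ucp1, Cidea, Cox8b and Itgad the groups without rosiglitazone lie together and EtOH_Rosi lies above 4OHT_Rosi; in Bpifa6 4OHT_Rosi lies above all other groups; in Hspb7 and Aplnr the direction of the difference between 4OHT and EtOH turns over with rosiglitazone.

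In 5 genes 4-hydroxytamoxifen raised the level without rosiglitazone and lowered it with rosiglitazone, both effects called: Hspb7, Ppara, Stxbp2, Suox and Trpv2. In another 5 it lowered the level without and raised it with rosiglitazone: Aplnr, Clec7a, Gng11, Marcks and Tfec. These 10 are 1.15% of the 868 genes with a called effect without rosiglitazone and 0.561% of the 1782 with a called effect with it, and 355 genes had called effects of the same sign. Leaving out 1 array gave between 3 and 18 such genes, 3 without 4OHT 1 or EtOH 2, 4 without 4OHT 3 or EtOH 3, 5 without 4OHT 2 and 18 without EtOH_Rosi 1. The interaction itself was called in all 12 such fits for each of the 5 that turned from rise to fall, and for Clec7a, Gng11 and Tfec. It was not called without 4OHT 1 for Aplnr and for Marcks, a substrate of protein kinase C (adjusted p = 0.0547).

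Ppara encodes the PPAR family receptor that governs fatty acid oxidation and is abundant in brown fat. Its values were 7.20, 7.08 and 7.02 in EtOH, 7.64, 7.37 and 7.48 in 4OHT, 9.91, 9.99 and 10.03 in EtOH_Rosi, and 9.66, 9.43 and 9.38 in 4OHT_Rosi. No pair of compared groups overlapped. 4-hydroxytamoxifen raised it by 0.40 without rosiglitazone (adjusted p = 0.0212) and lowered it with rosiglitazone (-0.49, adjusted p = 0.00366), an interaction of -0.88 ± 0.12 (adjusted p = 0.00776). Hspb7, a small heat shock protein of heart and muscle, went from 9.53 to 9.61 in EtOH up to 9.92 to 10.07 in 4OHT, and from 10.24 to 10.33 in EtOH_Rosi down to 9.48 to 9.96 in 4OHT_Rosi. Its interaction was -0.97 ± 0.14 (adjusted p = 0.00776), and rosiglitazone raised it after ethanol only (0.70, against -0.26 after 4-hydroxytamoxifen). Trpv2, a calcium-permeable channel, had an interaction of -0.88 ± 0.13 (adjusted p = 0.009), rising from a mean of 8.66 to 9.19 without rosiglitazone and falling from 10.38 to 10.04 with it. Stxbp2, a syntaxin-binding protein of vesicle fusion, was at -0.69 ± 0.08, and the mitochondrial sulfite oxidase Suox at -0.65 ± 0.10.

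In the opposite direction, the apelin receptor Aplnr had values of 8.26, 8.37 and 8.27 in EtOH, 7.52, 7.75 and 7.75 in 4OHT, 7.31, 7.14 and 6.98 in EtOH_Rosi, and 7.40, 7.72 and 8.09 in 4OHT_Rosi. Its difference with rosiglitazone was -1.16 after ethanol, while after 4-hydroxytamoxifen it was 0.06 and the groups overlapped. The interaction was 1.22 ± 0.20 (adjusted p = 0.013). It was 1.04 without 4OHT_Rosi 3, its highest array with rosiglitazone, and it was not called without 4OHT 1, where its adjusted p was 0.0513. Clec7a, the beta-glucan receptor dectin-1 of myeloid cells, lay between 6.55 and 6.70 in EtOH, 6.14 and 6.28 in 4OHT, 6.56 and 6.91 in EtOH_Rosi, and 6.98 and 7.23 in 4OHT_Rosi, an interaction of 0.82 ± 0.13 (adjusted p = 0.0122). Tfec, a transcription factor of the MiT family known in macrophages, was at 0.97 ± 0.13 (adjusted p = 0.00746), and the G protein gamma subunit Gng11 at 0.70 ± 0.10 (adjusted p = 0.00863).

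Oxidative genes of the mitochondrion lay below 0 nearly throughout, but few single genes passed. All 23 measured genes of the tricarboxylic acid cycle had a negative interaction (median -0.20, -0.26 to -0.18 over the fits that left out an array), and 0 were called. At an unadjusted p under 0.05 there were 12. Of 65 oxidative phosphorylation subunits, 61 lay below 0 (median -0.19, -0.22 to -0.17), and 1 was called, the complex I subunit Ndufs8 (-0.42 ± 0.08, adjusted p = 0.0379). Of 23 genes that break down branched-chain amino acids, 21 lay below 0 (median -0.30, -0.36 to -0.25), and 1 was called, Dbt, the E2 subunit of the branched-chain keto acid dehydrogenase (-0.42 ± 0.08, adjusted p = 0.0379). The calls of Ndufs8 and Dbt each held in 2 of the 12 fits. Of 21 genes of mitochondrial fatty acid oxidation, 18 lay below 0 (median -0.20), 12 had an unadjusted p under 0.05 and 0 were called. Among all genes 51.1% lay below 0 and 0.482% were called negative. In these lists 4-hydroxytamoxifen went with slightly higher levels without rosiglitazone and slightly lower levels with it. The medians were 0.08 and -0.10 for the oxidative phosphorylation subunits, 0.13 and -0.09 for the tricarboxylic acid cycle and 0.11 and -0.20 for branched-chain amino acid genes. The median responses to rosiglitazone after ethanol and after 4-hydroxytamoxifen were 0.58 and 0.36, 0.60 and 0.39, and 0.63 and 0.25 in the same order. For fatty acid oxidation they were 0.96 and 0.76. Across all genes the response was also smaller after 4-hydroxytamoxifen, and the slope of the second response on the first was 0.705. Whether these lists differ from that was not tested. Members of a list are not independent of one another, and these medians carry no test.

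The level of the oxidative phosphorylation list, as a mean over its 65 genes, was 10.29 to 10.42 on the EtOH arrays, 10.40 to 10.47 on 4OHT, 10.84 to 10.93 on EtOH_Rosi and 10.76 to 10.81 on 4OHT_Rosi. The rosiglitazone groups did not overlap, and the ones without it did. Several single mitochondrial genes outside these lists were called in every fit that left out an array. Rhot2, which tethers mitochondria to microtubule motors, lay between 9.85 and 9.99 in EtOH_Rosi and between 9.27 and 9.39 in 4OHT_Rosi, and its interaction was -0.62 ± 0.09 (adjusted p = 0.0114). Slc25a23, a calcium-dependent ATP-Mg/phosphate carrier, was at -0.78 ± 0.12, and Ldhd, the mitochondrial D-lactate dehydrogenase, at -0.76 ± 0.12. Mtarc1, a molybdenum enzyme of the outer mitochondrial membrane, went the other way. Its values were 9.01, 8.82 and 8.78 in EtOH, 9.12, 9.20 and 9.03 in 4OHT, 8.22, 8.37 and 8.15 in EtOH_Rosi, and 9.76, 9.66 and 9.76 in 4OHT_Rosi. Rosiglitazone lowered it after ethanol (-0.62) and raised it after 4-hydroxytamoxifen (0.61), an interaction of 1.23 ± 0.11 (adjusted p = 0.000514).

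General adipocyte genes showed no called interaction. Of 31 measured, 0 were called and 6 had an unadjusted p under 0.05, with a median of -0.04 and a range of -0.61 to 0.35. Among all genes 1.01% were called and 3106 of 22180 had an unadjusted p under 0.05. A count of 0 among so few genes therefore does not set this list apart. The adipokine gene Adipoq was at 10.95 to 11.01 in EtOH_Rosi, and 11.00 to 11.11 in 4OHT_Rosi, an interaction of 0.03 ± 0.08 (adjusted p = 0.913). Fabp4, the fatty acid carrier, was at -0.04 ± 0.07, near the top of the signal range. Pparg, the receptor of rosiglitazone, was at -0.18 ± 0.08 (adjusted p = 0.31), and the insulin-responsive glucose transporter Slc2a4 at -0.61 ± 0.18 (adjusted p = 0.13). Of 35 PPAR target genes 1 was called, the retinol saturase Retsat (-0.50 ± 0.11, adjusted p = 0.0455, held in 2 of the 12 fits), and the median was -0.05. Among all genes 0.482% were called negative. Retsat rose with 4-hydroxytamoxifen without rosiglitazone (0.45) and was at nearly equal levels with it, 11.90 to 12.09 in EtOH_Rosi, and 11.95 to 11.98 in 4OHT_Rosi. The lists of de novo lipogenesis (24 genes), cholesterol synthesis (19) and Prdm16 partners (29) had 0 calls and medians between -0.05 and 0.02. At an unadjusted p under 0.05 they had 3, 4 and 6.

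Of 21 genes selective for white fat, 3 were called negative and 1 positive, where 0.482% and 0.523% of all genes were, with a median of 0.01. The negative calls fell to 1 without EtOH 2, EtOH 3, 4OHT 1, 4OHT 2, 4OHT 3, EtOH_Rosi 2, 4OHT_Rosi 2 or 4OHT_Rosi 3, and the positive call was lost without 4OHT 1. Sncg, the gamma-synuclein gene of white adipocytes, had values of 12.36, 12.27 and 12.27 in EtOH, 12.22, 12.20 and 12 in 4OHT, 11.71, 11.72 and 11.91 in EtOH_Rosi, and 10.87, 10.80 and 10.96 in 4OHT_Rosi. Rosiglitazone lowered it in both backgrounds, by more after 4-hydroxytamoxifen (-1.26 against -0.52), an interaction of -0.74 ± 0.11 (adjusted p = 0.009). Mest, an imprinted gene linked to adipocyte size, lay between 9.73 and 9.83 in EtOH, 9.08 and 9.28 in 4OHT, 8.85 and 9 in EtOH_Rosi, and 8.89 and 8.98 in 4OHT_Rosi. Its interaction of 0.57 ± 0.09 (adjusted p = 0.0156) was not called without 4OHT 1 (adjusted p = 0.0566). Npr3, the clearance receptor of natriuretic peptides, and Mpzl2, an adhesion protein, were at -0.46 and -1.20, and their calls held in 3 and 2 of the 12 fits.

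The negative interaction with the smallest adjusted p was that of Itgad, an integrin alpha subunit that pairs with beta-2 on leukocytes. Its values were 6.28, 6.49 and 6.59 in EtOH, 6.14, 6.26 and 6.33 in 4OHT, 10.56, 10.75 and 10.52 in EtOH_Rosi, and 9.04, 8.86 and 8.66 in 4OHT_Rosi. Rosiglitazone raised Itgad by 4.16 after ethanol and 2.61 after 4-hydroxytamoxifen, an interaction of -1.55 ± 0.15 (adjusted p = 0.00074). Of the other genes that rosiglitazone raised after ethanol, Car2, the cytosolic carbonic anhydrase, went from 10.22 to 10.34 in EtOH_Rosi to 9.45 to 9.74 in 4OHT_Rosi (interaction -0.84 ± 0.12, adjusted p = 0.00779). Bves, a Popeye-domain membrane protein of striated muscle, went from 9.25 to 9.43 to between 8.23 and 8.52 (-0.93 ± 0.12, adjusted p = 0.00726). Cdsn, the adhesion protein corneodesmosin of skin, responded after ethanol only. It lay between 9.61 and 10.02 in EtOH_Rosi, and between 8.45 and 8.92 in the other 3 groups, an interaction of -1.22 ± 0.17 (adjusted p = 0.00776). The sodium/hydrogen exchanger Slc9b2 (-0.85), the transcription factor Nfe2l3 (-0.84), the small GTPase Rasl12 (-0.83), Sdr39u1 (-0.89), the 5-oxoprolinase Oplah (-0.72) and the sterol exporter Abcg1 (-0.57) were also highest in EtOH_Rosi and were called in all 12 fits. Their responses to rosiglitazone after 4-hydroxytamoxifen differed: they were called in Sdr39u1 (0.45, adjusted p = 0.00113), Slc9b2 (0.34, adjusted p = 0.0166) and Abcg1 (0.18, adjusted p = 0.0448), and not in Nfe2l3 (0.19), Oplah (0.06) or Rasl12 (-0.07). Ace, the angiotensin-converting enzyme gene, differed from these because rosiglitazone lowered it. Its values were 12.03 to 12.09 in EtOH, 11.89 to 11.91 in 4OHT, 11.34 to 11.42 in EtOH_Rosi, and 10.30 to 10.67 in 4OHT_Rosi, an interaction of -0.78 ± 0.12 (adjusted p = 0.0106).

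In a smaller set the negative interaction came from a rise after 4-hydroxytamoxifen that was seen without rosiglitazone only. Orm3, an acute phase orosomucoid gene, had values of 6.25, 5.60 and 5.82 in EtOH, 7.84, 7.70 and 7.34 in 4OHT, 4.88, 5.10 and 4.90 in EtOH_Rosi, and 5.32, 5.37 and 4.94 in 4OHT_Rosi. The 4OHT arrays stood above all others, and the interaction was -1.49 ± 0.23 (adjusted p = 0.0125). The orosomucoid genes are near-identical copies, which the probes may not separate. Tgm2, tissue transglutaminase, lay between 11.14 and 11.27 in EtOH, 12 and 12.08 in 4OHT, 11.60 and 11.71 in EtOH_Rosi, and 11.70 and 11.86 in 4OHT_Rosi, an interaction of -0.68 ± 0.09 (adjusted p = 0.00726). Cyp2e1, a cytochrome P450, rose by 1.36 without rosiglitazone and differed by 0.19 with it. Its interaction of -1.17 ± 0.24 (adjusted p = 0.0426) was called in 3 of the 12 fits.

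Bpifa6, a member of the BPI-fold family of secreted lipid-binding proteins, had the largest interaction of all. Its values were 4.60, 4.85 and 4.55 in EtOH, 4.87, 4.86 and 4.84 in 4OHT, 5.57, 5.92 and 5.59 in EtOH_Rosi, and 8.57, 8.40 and 8.65 in 4OHT_Rosi. Only 4OHT_Rosi lay above the median level. Rosiglitazone raised it by 1.03 after ethanol and 3.68 after 4-hydroxytamoxifen, an interaction of 2.66 ± 0.14 (adjusted p = 2.25e-06). Slc5a7, the high-affinity choline transporter, also had 4OHT_Rosi above all other groups, with 6.28 to 6.37 in EtOH_Rosi, and 7.14 to 7.65 in 4OHT_Rosi, against 5.27 to 5.34 in EtOH and 5.27 to 5.58 in 4OHT (interaction 0.97 ± 0.16, adjusted p = 0.014). The same held for Ncan, the proteoglycan neurocan (0.93 ± 0.14), Gnao1, a G protein alpha subunit (0.69 ± 0.08), and the acyl-CoA thioesterase Acot5 (0.78 ± 0.11), which belongs to a cluster of near-identical genes that the probes may not separate. In Gnao1 the spread was narrow: 8.80 to 8.88 in EtOH_Rosi, and 9.44 to 9.46 in 4OHT_Rosi.

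In other positive genes the level after ethanol was lower with rosiglitazone than without, and 4-hydroxytamoxifen raised it when rosiglitazone was present. Hgf, the hepatocyte growth factor gene, was at 8.63 to 8.72 in EtOH and 8.70 to 8.90 in 4OHT, and at 7.04 to 7.19 in EtOH_Rosi, and 7.89 to 8.03 in 4OHT_Rosi, an interaction of 0.69 ± 0.10 (adjusted p = 0.00797). Tlr8, an endosomal RNA receptor, had values of 7.75, 7.58 and 7.34 in EtOH, 7.68, 7.72 and 7.62 in 4OHT, 7.08, 7.05 and 6.86 in EtOH_Rosi, and 7.86, 8.09 and 8.17 in 4OHT_Rosi. Its interaction was 0.93 ± 0.15 (adjusted p = 0.013). Nectin3, a cell adhesion protein (0.69 ± 0.09), and Ptprk, a receptor tyrosine phosphatase (0.58 ± 0.09), were at 8.12 to 8.27 and 8.66 to 8.81 in 4OHT_Rosi, above each of their other groups. In Ptprk the other 3 groups overlapped, so a lower level with rosiglitazone after ethanol was not clear there. The chemokine Ccl6 was at 0.77 ± 0.11. Ccl11, the eosinophil chemokine eotaxin, was at 1.04 ± 0.22 (adjusted p = 0.0437), with a call that held in 2 of the 12 fits.

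In a further set of positive genes, 4-hydroxytamoxifen lowered the level without rosiglitazone, and the level after ethanol was also lower with rosiglitazone. Ngfr, the p75 neurotrophin receptor, had values of 8.76, 8.96 and 8.66 in EtOH, 6.49, 6.63 and 6.40 in 4OHT, 7.16, 6.99 and 6.84 in EtOH_Rosi, and 6.86, 6.05 and 6.54 in 4OHT_Rosi. EtOH stood above all other arrays by more than 1 log2 unit. The interaction was 1.77 ± 0.23 (adjusted p = 0.00726). Sfrp4, a secreted Wnt modulator, lay between 7.17 and 7.54 in EtOH and between 5.60 and 6.27 in the other groups (1.07 ± 0.15, adjusted p = 0.00779). Gucy1a1, a subunit of soluble guanylate cyclase, was at 7.73 to 7.93 in EtOH and 6.81 to 6.88 in 4OHT, and at 5.92 to 6.18 and 5.86 to 6.06 with rosiglitazone, where the arrays overlapped (0.86 ± 0.12, adjusted p = 0.00726). Gdf10, a BMP family growth factor, was at 9.76 to 9.78 in EtOH, 9.02 to 9.09 in 4OHT, 8.17 to 8.44 in EtOH_Rosi, and 8.20 to 8.28 in 4OHT_Rosi (0.67 ± 0.09, adjusted p = 0.00776). Mmp12, the macrophage metalloelastase (1.02 ± 0.16), and Omd, the matrix proteoglycan osteomodulin (0.84 ± 0.13), had the same order. The progesterone receptor Pgr fell likewise without rosiglitazone (-0.66, adjusted p = 0.00226), and its interaction of 0.71 ± 0.14 was called in 3 of the 12 fits. It was 1 of 2 genes called positive among 19 estrogen and tamoxifen targets (median 0.08), where 0.523% of all genes were. The other, the Wnt pathway protein Ccn5, differed by -0.26 without rosiglitazone, which did not pass (adjusted p = 0.223), and rose by 0.56 with it (adjusted p = 0.00513). Its interaction of 0.82 ± 0.15 was called in 5 of the 12 fits. Several genes of this set were dim against the median level of 6.60. Sfrp4 lay below it in all groups but EtOH, Gucy1a1 in both rosiglitazone groups, and Pgr in every group. The means of Ngfr lay below it in both 4-hydroxytamoxifen groups. In such genes a second fall may not be measurable, which limits what their interactions show. Gdf10 and Mmp12 stayed above that level on every array.

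Cell cycle genes were the list with the highest median. Of 36 measured, 35 had an interaction above 0, with a median of 0.41, against 48.7% of all genes above 0 and a median of 0.00. Called were 7 positive and 0 negative, where 0.523% and 0.482% of all genes were. At an unadjusted p under 0.05 there were 27, against 3106 of all 22180 genes. The median was 0.30 without 4OHT_Rosi 3 and 0.47 without 4OHT_Rosi 1. The number called was 0 without EtOH 1, EtOH 2, 4OHT 1 or 4OHT 3, 1 without EtOH_Rosi 2 or 4OHT_Rosi 3, 2 without 4OHT 2 or EtOH_Rosi 3, 3 without EtOH 3 and 9 without 4OHT_Rosi 1. The component differences show the order of the groups: 4-hydroxytamoxifen differed from ethanol by a list median of -0.39 without rosiglitazone and -0.01 with it, and rosiglitazone from none by -0.83 after ethanol and -0.42 after 4-hydroxytamoxifen. The mean level of the list was 8.29 to 8.36 on the EtOH arrays, 7.84 to 7.96 on 4OHT, 7.49 to 7.60 on EtOH_Rosi and 7.43, 7.48 and 7.69 on 4OHT_Rosi. The 4OHT_Rosi array at 7.69 was 4OHT_Rosi 3.

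Plk1, the mitotic polo-like kinase, had values of 8.75, 8.72 and 8.70 in EtOH, 7.80, 8.10 and 7.93 in 4OHT, 7.54, 7.45 and 7.46 in EtOH_Rosi, and 7.27, 7.41 and 7.61 in 4OHT_Rosi, an interaction of 0.73 ± 0.12 (adjusted p = 0.0205). Its call was lost without EtOH 1, EtOH 2, 4OHT 1, 4OHT 3 or EtOH_Rosi 2, with an adjusted p of up to 0.0628. Top2a, the topoisomerase that untangles chromosomes, was at 8.20 to 8.36 in EtOH, 7.53 to 7.75 in 4OHT, 6.97 to 7.05 in EtOH_Rosi, and 6.89 to 7.09 in 4OHT_Rosi (0.57 ± 0.10, adjusted p = 0.0249, held in 6 of the 12 fits). Kif23, a kinesin of cytokinesis, was at 0.90 ± 0.19 (adjusted p = 0.0426, held in 2), and the centromere motor Cenpe at 0.48 ± 0.10 (adjusted p = 0.0422, held in 2). Promoters of 3 of these genes are shown for comparison with the thermogenic ones, with the same window, source and capitals. Plk1 lies at chr7:122159185-122159484 on the plus strand, Top2a at chr11:99024140-99024439 on the minus strand and Kif23 at chr9:61946750-61947049 on the minus strand.
Plk1: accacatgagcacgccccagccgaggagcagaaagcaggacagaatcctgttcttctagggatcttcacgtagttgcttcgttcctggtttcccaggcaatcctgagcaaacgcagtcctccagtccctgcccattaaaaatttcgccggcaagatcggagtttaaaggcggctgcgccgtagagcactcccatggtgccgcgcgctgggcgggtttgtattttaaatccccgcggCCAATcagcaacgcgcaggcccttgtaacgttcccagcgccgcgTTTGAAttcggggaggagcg
Top2a: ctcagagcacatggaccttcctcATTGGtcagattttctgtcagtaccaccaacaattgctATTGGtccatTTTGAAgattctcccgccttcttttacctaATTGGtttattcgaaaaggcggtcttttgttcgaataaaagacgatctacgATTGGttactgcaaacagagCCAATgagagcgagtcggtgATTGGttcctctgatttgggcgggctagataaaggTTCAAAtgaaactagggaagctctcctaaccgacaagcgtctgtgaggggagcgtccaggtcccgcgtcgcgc
Kif23: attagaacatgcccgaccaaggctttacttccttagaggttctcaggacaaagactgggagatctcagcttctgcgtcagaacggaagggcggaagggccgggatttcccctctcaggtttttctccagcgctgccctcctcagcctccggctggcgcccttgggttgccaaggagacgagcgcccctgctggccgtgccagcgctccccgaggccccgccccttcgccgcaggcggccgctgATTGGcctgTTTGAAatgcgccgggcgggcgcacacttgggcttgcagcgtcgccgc
All 3 windows hold CCAAT, the box bound by NF-Y, and TTTGAA, the core letters of the cell cycle homology region of late cell cycle genes. Of the 29 cell cycle genes with a promoter in the table, 24 held CCAAT (82.8%) and 14 held TTTGAA (48.3%), against 37.9% and 18.1% of all promoters there. Of 93 promoters of called positive genes, 39 held CCAAT (41.9%), and of 85 of called negative genes 35 did (41.2%).

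**Figure D3:**
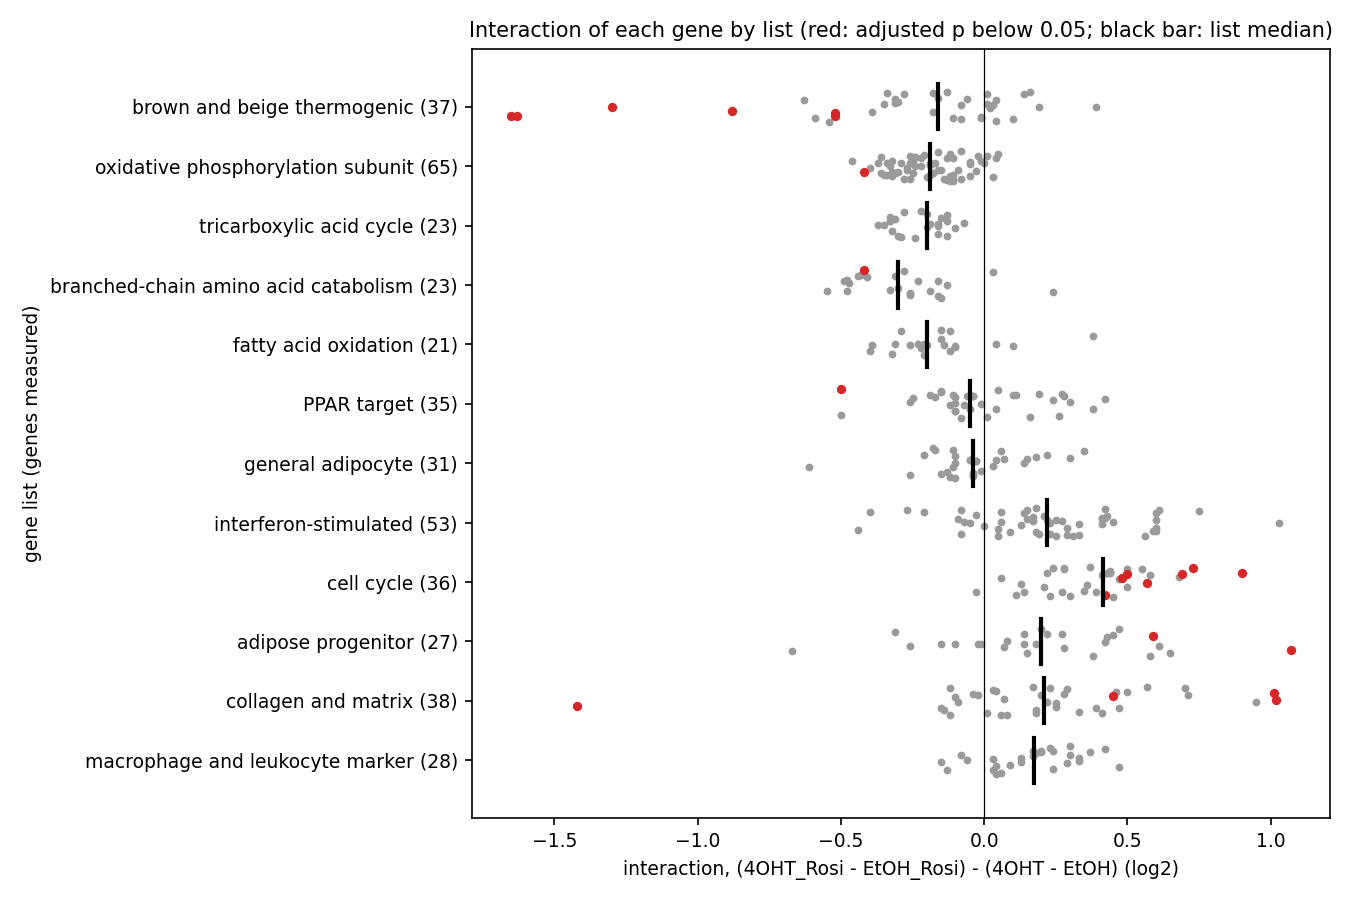
Interaction of every measured gene in 12 lists, on the log2 scale; each point is a gene, red points are called (adjusted p under 0.05), the black bars are list medians and the numbers in brackets count the genes. The vertical scatter within a list only separates the points. The thermogenic list reaches furthest to the left, with a median of -0.16, the 23 tricarboxylic acid cycle genes all lie left of 0, and 35 of 36 cell cycle genes lie right of 0.

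Interferon-stimulated genes, which encode antiviral and antigen-handling proteins, had 0 called interactions among 53 measured, and 11 had an unadjusted p under 0.05. Their median was 0.22 (0.11 without EtOH 2 to 0.29 without EtOH_Rosi 1, where 4 genes were called), with 42 above 0. Among all genes 48.7% lay above 0, 1.01% were called and 3106 of 22180 had an unadjusted p under 0.05, so 0 calls do not set this list apart. The list's medians for 4-hydroxytamoxifen against ethanol were 1.12 without rosiglitazone and 1.39 with it. Irf7, an interferon regulatory factor, was at 8.21, 8.66 and 8.17 in EtOH, 10.57, 10.79 and 10.60 in 4OHT, 8.66, 8.32 and 8.10 in EtOH_Rosi, and 10.64, 10.58 and 10.55 in 4OHT_Rosi. Both 4-hydroxytamoxifen groups stood clear of both ethanol groups, and the interaction was -0.08 ± 0.20 (adjusted p = 0.916). Those of the ubiquitin-like modifier Isg15 (0.27 ± 0.19), the RNA-binding protein Ifit1 (0.42 ± 0.41) and the nucleotide kinase Cmpk2 (0.29 ± 0.33) did not pass. In Ifit1 the EtOH arrays spread from 8.19 to 9.61, which limits what can be measured. The nucleic acid sensor Zbp1 came closest (1.03 ± 0.24, adjusted p = 0.0629). It was at 9.08 to 9.41 in EtOH, 10.43 to 10.63 in 4OHT, 8.12 to 8.91 in EtOH_Rosi, and 10.63 to 11.08 in 4OHT_Rosi, and it was called without EtOH_Rosi 1 only. MHC class I presentation (21 genes, median -0.06) and components of the interferon pathway (28 genes, median -0.01) had 0 calls, and 4 and 2 genes at an unadjusted p under 0.05.

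Genes of matrix and of precursor cells held a few calls. Of 38 collagen and matrix genes 3 were called positive and 1 negative, where 0.523% and 0.482% of all genes were, with 29 above 0, where 48.7% of all genes were, and a median of 0.21 (0.14 to 0.28). The positive calls were Mmp12, the collagenase Mmp13 (1.01 ± 0.20, adjusted p = 0.0367) and the thrombospondin Thbs2 (0.45 ± 0.09, adjusted p = 0.0354), and the negative one was Timp4, an inhibitor of metalloproteinases (-1.42 ± 0.26, adjusted p = 0.0241). The call of Mmp12 held in all 12 fits, that of Timp4 in 7, that of Thbs2 in 4 and that of Mmp13 in 2. Timp4 was at 8.52 to 8.92 in EtOH, 9.10 to 9.41 in 4OHT, 8.07 to 8.65 in EtOH_Rosi, and 7.06 to 7.77 in 4OHT_Rosi. Of 27 adipose progenitor genes 2 were called positive, Sfrp4 and the tissue factor gene F3 (0.59 ± 0.12, adjusted p = 0.0379, held in 3 of the 12 fits), with a median of 0.20. Smooth muscle genes (24, median 0.21, 10 at an unadjusted p under 0.05) had 0 calls. TGF-beta and BMP genes (34, median 0.13) had 1, Gdf10, and endothelial markers (17, median 0.23) had 1, the VEGF receptor Kdr (0.61, held in 1 of the 12 fits). Without 4OHT_Rosi 3 the medians were 0.20 for smooth muscle, 0.14 for matrix, 0.18 for progenitor and 0.04 for TGF-beta and BMP genes. The median responses to rosiglitazone after ethanol and after 4-hydroxytamoxifen were -0.74 and -0.41 for smooth muscle and -0.65 and -0.51 for matrix. They were -0.54 and -0.33 for progenitor, -0.25 and -0.17 for TGF-beta and BMP, and -0.76 and -0.51 for endothelial genes. Whether these lists differ from the smaller response across all genes was not tested.

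Several positive genes named here (Clec7a, Tlr8, Tfec, Mmp12, Ccl6) are known from macrophages, so the levels of leukocyte markers are given beside them. Itgad, the integrin subunit known from leukocytes, went the other way (-1.55). Of 28 macrophage and leukocyte markers, 24 had an interaction above 0 and 0 were called, with 5 at an unadjusted p under 0.05 and a median of 0.17. Among all genes, 48.7% lay above 0 and 3106 of 22180 had an unadjusted p under 0.05. The mean level of the list was 7.43 to 7.60 on the EtOH arrays, 7.25 to 7.36 on 4OHT, 7.04 to 7.19 on EtOH_Rosi and 7.09 to 7.14 on 4OHT_Rosi, so the rosiglitazone groups overlapped. Lyz2 (group means 11.28 to 11.92) and Cd68 (10.79 to 11.38) were bright, and Adgre1, a macrophage surface receptor, lay between 7.97 and 8.84. The T and B cell markers Cd3d, Cd3e, Cd8a and Ms4a1 lay between 4.44 and 5.48. The part of these cells in the interactions of Clec7a, Tlr8, Tfec, Mmp12, Ccl6 and Itgad was not tested. In these bulk samples fewer cells of a type and less RNA per cell cannot be told apart.

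**Figure D4:**
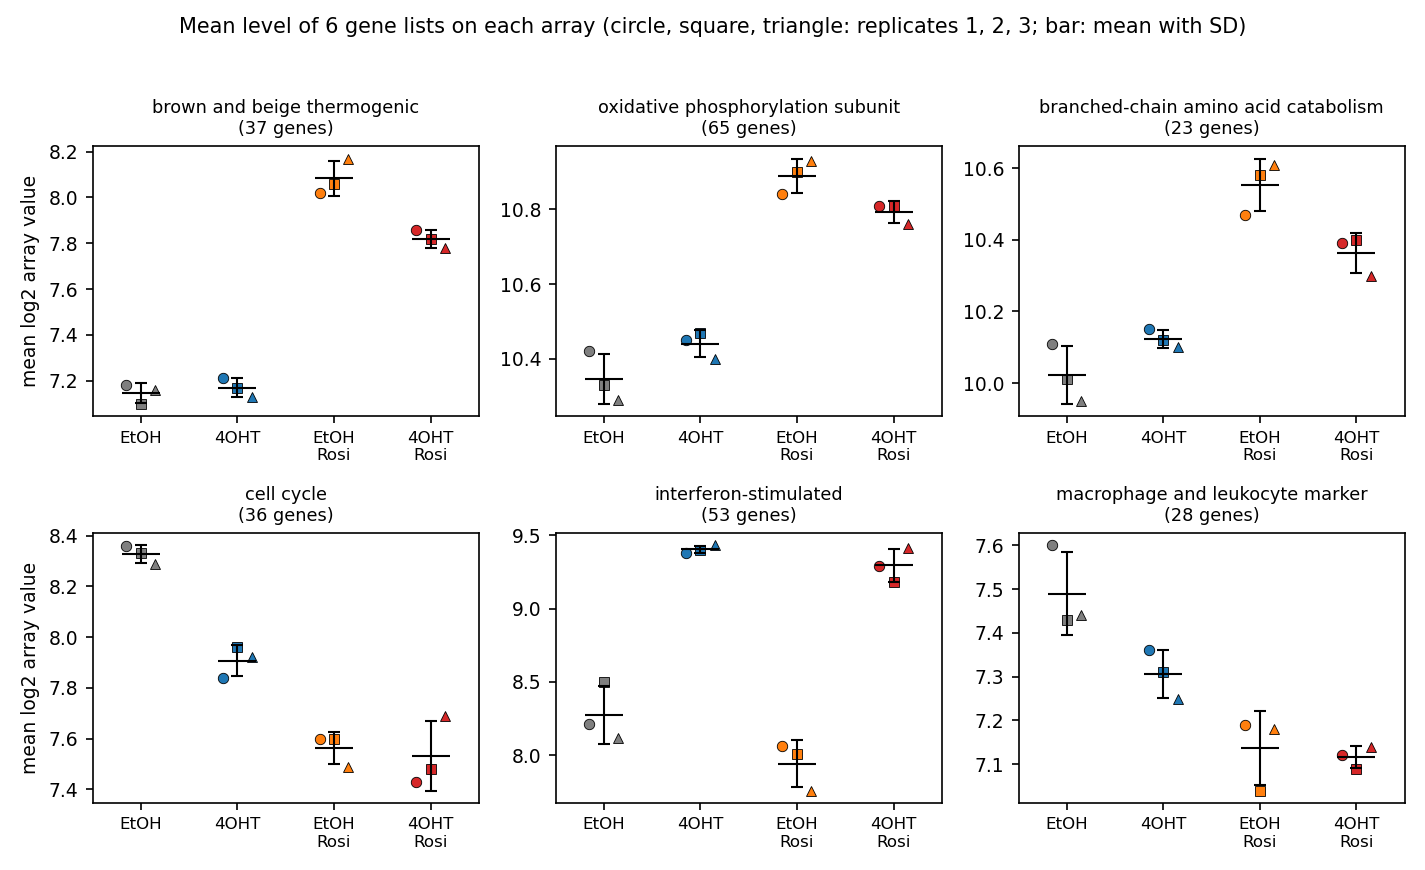
Mean log2 level of 6 gene lists on each array; circles, squares and triangles are replicates 1, 2 and 3, and the bars give the mean and SD of 3 arrays. The vertical scale differs between lists. EtOH_Rosi lies above 4OHT_Rosi in the thermogenic, oxidative phosphorylation and branched-chain amino acid lists; in the cell cycle list EtOH stands highest and 4OHT_Rosi 3 (7.69) above the other 4OHT_Rosi arrays; in the interferon list both 4-hydroxytamoxifen groups stand above both ethanol groups.

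The remaining lists held at most 1 call each, where 0.523% of all genes were called positive and 0.482% negative. Single calls were the muscle phosphofructokinase Pfkm (-0.54, held in 5 of the 12 fits) among 28 glycolysis and hypoxia genes, the creatine kinase Ckb (-0.53, held in 4) among 22 genes of creatine and calcium cycling, the phosphoglucomutase Pgm2 (-0.33, held in 0) among 23 of glycogen and glucose handling, and the clock output factor Dbp (-0.53, held in 9) among 17 circadian genes. Il1rn, the interleukin-1 receptor antagonist (0.62, held in 3), was the one call among 28 NF-kappaB and cytokine genes. The circadian list had a median of -0.15 with 14 of 17 genes below 0, the glycogen list -0.14 with 18 of 23 below 0, the creatine list -0.07 and the glycolysis list -0.05. The NF-kappaB list had a median of 0.10 with 24 of 28 genes above 0. Npr3 was the one call among 21 genes of lipolysis and adrenergic signalling (median -0.03), and Ngfr the one among 14 Schwann and neural markers (median 0.01). In peroxisomal lipid oxidation, p53 targets, the unfolded protein response, ribosomal proteins, skeletal muscle markers and epithelial markers 0 genes were called, and between 0 and 9 had an unadjusted p under 0.05, with medians from -0.09 to 0.13.

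Without 4OHT_Rosi 3, the array that stood apart, the called genes listed next did not pass. Their adjusted p-values in limma's fit lay between 0.0507 and 0.104, and all kept their sign. Positive ones were F3 (0.49), Top2a (0.52), Mmp13 (0.85), Il1rn (0.62), Thbs2 (0.42), Ccl11 (0.87), Kdr (0.58), Kif23 (0.78), Cenpe (0.43), Pgr (0.67), Shisa6 (0.92) and Pclaf (0.91). Negative ones were Cyp2e1 (-0.96), Pgm2 (-0.36), Ndufs8 (-0.42), Npr3 (-0.41), Dbt (-0.39), Sirt3 (-0.48), Mpzl2 (-1.15), Ckb (-0.48), Retsat (-0.49), Itpka (-1.34), Kazald1 (-1.01) and Cxcl13 (-0.84). The list medians without that array were -0.07 for glycogen and glucose handling, 0.06 for NF-kappaB and cytokine genes, 0.02 for the unfolded protein response in place of 0.08, 0.04 for estrogen and tamoxifen targets, 0.17 for endothelial markers and -0.03 for p53 targets in place of 0.04.

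Across all genes, the response to rosiglitazone was somewhat smaller after 4-hydroxytamoxifen. The 2 responses share no arrays. Their SD over genes was 0.360 after ethanol and 0.301 after 4-hydroxytamoxifen, a ratio of 0.837, and the slope of the second on the first was 0.705 (0.663 to 0.764 over the fits that left out an array). Without 4OHT_Rosi 3 the ratio was 0.885 and the slope 0.764, the highest of these values. The responses correlated across genes with r = 0.842. The effects of 4-hydroxytamoxifen without and with rosiglitazone, which share no arrays either, correlated with r = 0.433 (0.385 to 0.490). These are descriptions across genes, which are not independent replicates, and error in the first response lowers the slope.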

How the data were processed

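Total RNA of 12 samples was hybridised to Affymetrix mouse gene arrays, and the deposited log2 values were made with Affymetrix Expression Console, per the submitters' processing notes. Its version and its summary and normalization methods were not stated there. The deposited table holds 41345 probe sets, with log2 values of 3.05 to 13.91 and array medians of 5.97 to 6.05. The number of arrays, 3 in each of 4 groups, limits the precision, and the median SE of the interaction was 0.11.

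Control probe sets (190) and those with no gene symbol (15820) or several (1814) in the platform annotation were left out. The other 23521 were named, 23328 of them through RefSeq by Entrez ID and 193 by the annotation's own name. The brightest probe set by mean over all arrays stood for a gene, which gave 22180 genes. The interaction, (4OHT_Rosi - EtOH_Rosi) - (4OHT - EtOH), and its component differences were fitted on all 4 groups with limma 3.58.1 (R 4.3.3; lmFit, contrasts and eBayes, two-sided, 8 residual and 5.07 prior degrees of freedom), and p-values were Benjamini-Hochberg adjusted over all genes. The other tables were made with Python 3.11.15, pandas 2.3.3, numpy 2.4.6 and matplotlib 3.10.9. Tested on simulated data with 200 changed genes, the interaction fit recovered 59.7% of log2 changes of 0.5 and 100% of those of 1 and 2, and 4.95% of its calls were on unchanged genes. The simulated noise was independent and, for each gene, equally large on all arrays. In the real data 4OHT_Rosi 3 stood apart and the calls depended on single arrays, so these rates may not hold there.

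Genes were named by rule: Prdm16; a panel (Ucp1, Cidea, Cox8b, Cox7a1, Ppargc1a, Pparg, Adipoq, Fabp4, Irf7, Isg15, Ifit1, Cmpk2); the 15 largest called interactions in each direction among genes whose highest group mean reached the median level, passing over predicted genes, small RNAs and olfactory, vomeronasal and taste receptors; up to 4 called members of each of 35 gene lists, or the member with the smallest p where none was called; and 6 genes with opposite effects of 4-hydroxytamoxifen. Genes called in all 12 fits that left out an array were named after their values were seen. Members and lists were chosen with earlier results of these data known. Alternatives were a replicate block, a variance trend, array weights, normalization, centring, filters on dim genes, the choice of probe sets, stricter thresholds and leaving out each array.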

Additional observations from a re-analysis of the deposited data

Results flagged for a closer look

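An interaction is by construction a test that the effect of 4-hydroxytamoxifen differs between cells with and without rosiglitazone, so each called gene that was named by rule stands here, with its interaction on the log2 scale from limma's fit. In the brown and beige list these were Ucp1 (-1.65), Cidea (-1.63), Cox8b (-1.30), Ppara (-0.88) and Letmd1 (-0.52). In other lists of metabolism, hormones and the clock they were Mpzl2 (-1.20), Sncg (-0.74), Pfkm (-0.54), Ckb (-0.53), Dbp (-0.53), Retsat (-0.50), Npr3 (-0.46), Ndufs8 (-0.42), Dbt (-0.42) and Pgm2 (-0.33). Further negative interactions were those of Itgad (-1.55), Orm3 (-1.49), Itpka (-1.46), Timp4 (-1.42), Cdsn (-1.22), Cyp2e1 (-1.17), Tpsab1 (-1.09), Kazald1 (-1.04), Hspb7 (-0.97), Muc2 (-0.97), Cxcl13 (-0.95) and Trpv2 (-0.88). The calls of Itpka, Tpsab1, Kazald1, Muc2 and Cxcl13 held in 4, 7, 2, 3 and 3 of the 12 fits that left out an array.

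Positive interactions of cell cycle genes were those of Kif23 (0.90), Plk1 (0.73), Top2a (0.57) and Cenpe (0.48), and outside that list Pclaf (0.95), a PCNA-binding factor. In lists of matrix, precursors, growth factors and other cell types they were Ngfr (1.77), Sfrp4 (1.07), Mmp12 (1.02), Mmp13 (1.01), Ccn5 (0.82), Pgr (0.71), Gdf10 (0.67), Il1rn (0.62), Kdr (0.61), F3 (0.59), Mest (0.57) and Thbs2 (0.45). Further positive ones were those of Bpifa6 (2.66), Mtarc1 (1.23), Aplnr (1.22), Shisa6 (1.11), Ccl11 (1.04), Slc5a7 (0.97), Tfec (0.97), Tlr8 (0.93), Ncan (0.93), Lurap1l (0.92) and Clec7a (0.82). The calls of Pclaf, Shisa6 and Lurap1l held in 2, 2 and 5 of the 12 fits that left out an array.

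Probe sets that carry no single gene symbol are outside the genes tested. In a fit over all probe sets that were not controls, 7 of them were named for a called interaction. Without a symbol, probe set 17206929 was at 0.89, 17207131 at -1.08 and 17257045 at 1.83. With several symbols, 17262250 was at -0.80, 17320499 at -0.74, 17425926 at 1.43 and 17491205 at -0.96.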

How the results depend on the processing

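The number of genes called, 116 positive and 107 negative, moved with the processing. All 223 kept their sign in all 12 fits that left out an array, which was likely for genes called on the same arrays. Leaving out 1 array gave 24 to 177 positive and 27 to 173 negative calls, and 3 to 18 genes with opposite effects of 4-hydroxytamoxifen in place of 10. The counts of positive and negative calls were 192 and 201 with an intensity trend and robust prior, 198 and 198 with array weights, 200 and 181 without the dimmer 50% of genes, 17 and 23 over all probe sets, 14 and 15 at an adjusted p under 0.01, and 12 and 12 with a 2-fold minimum. Genes with opposite effects, a count added after the data were seen, numbered 23, 27, 29 and 3 under the first 4 of these. Of the 223 genes, 223 remained called with array weights, 210 after quantile normalization, 187 after median centring and 33 over all probe sets. None of the 81 named genes changed sign in any setting, and 14 of the 55 called ones were called in every setting that kept all arrays and the threshold.

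A replicate block gave 59 positive and 57 negative calls, with 109 of the 223 still called. Arrays of the same number in different groups did not deviate together (r of -0.24 to 0.079 over 18 pairs, and 0 of 12 arrays correlated best with their own number), so the number was not taken as a pairing. Dim genes limit the result: 18 called genes had every group mean below the median level.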
